A study of Mus musculus with 4 samples.

Results

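Sesn1, Sesn2, Sesn3, Ddit4, Ddit4l and Trp53inp1 are stress genes that link DNA damage and nutrient shortage to growth control. They were followed by symbol as 6 of the 32285 genes counted in single-cell libraries of mouse hindlimb muscle taken after irradiation. Sesn2, Ddit4l and Trp53inp1 were higher in the irradiated endothelial-like cells at both times, whereas Sesn1, Sesn3 and Ddit4 were not 1.5-fold higher there at either time.

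Sestrins are cytosolic proteins that bind the GATOR2 complex and so restrain mTORC1, the kinase complex that drives protein synthesis and blocks autophagy. In human cells SESN1 and SESN2 were described as p53 targets and SESN3 as a FoxO target. Ddit4, also called Redd1, and its paralog Ddit4l, also called Redd2, restrain mTORC1 through the TSC1 and TSC2 complex, and Ddit4l is known for its high level in skeletal muscle. Trp53inp1 encodes a p53-induced protein that acts with Hipk2 on p53 in the nucleus and binds LC3-family proteins during autophagy.

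In each male C57Bl/6J mouse 1 hindlimb received 3 fractions of 8.2 Gy of X-rays from the age of 5 weeks (IR), while lead covered the rest of the body and the opposite limb served as the control (CON). Limbs were taken 24 hours after the last fraction or 56 days after irradiation, which gave the groups IR 24 hours, CON 24 hours, IR 56 days and CON 56 days. Limbs of 3 mice were pooled in each, and live mononucleated cells were sorted and sequenced as 1 library per group. CON is therefore the shielded limb of an irradiated mouse, not a limb of an untreated mouse. The single library of each group has no replicate check, so the groups were not tested against each other, and every interval given is a 95% interval that covers counting error only, not differences between mice.

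Of 7086 deposited barcodes 6544 passed the limits of 200 genes (least), 500 UMIs (least) and a mitochondrial share of 20% (most). They numbered 2539 in IR and 1336 in CON at 24 hours, and 969 in IR and 1700 in CON at 56 days, with medians of 3057 to 3627 UMIs. Between libraries 11 barcode sequences were shared, and no ratio below was moved by leaving them out. Cdkn1a, the p53 target that encodes p21, went with the labels: it had 1832 and 166 CPM (UMIs per 1000000 UMIs of the barcodes summed) in IR and CON at 24 hours, and 793 and 106 CPM at 56 days. Classes were gated on marker genes and are called by resemblance only. Endothelial-like barcodes formed the largest class, with 1445 of the IR and 459 of the CON barcodes at 24 hours, and 473 of the IR and 778 of the CON barcodes at 56 days. All 12 endothelial markers were seen in every library, and in no class did a marker of another class stand among the 10 genes of highest fold. The gate chose barcodes by these lists, so neither is an independent check. Of the endothelial markers 0 stood among the 10 genes of highest fold in that class. Barcodes that carried markers of several classes (283 in IR and 82 in CON at 24 hours, 65 in IR and 88 in CON at 56 days) were kept out of the classes. Myofibre-like barcodes, with median totals of 938 to 1498 UMIs, hold fibre RNA although the sort was for mononucleated cells. Classes with at least 25 barcodes in both libraries of a time are described, which are 9 at 24 hours and 8 at 56 days.

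The 6 genes are protein coding and lie on 4 chromosomes of mm10, with Ddit4 on the minus strand of chromosome 10 (59949669 to 59951834) and Sesn1 on its plus strand (41809935 to 41908424). Sesn2 (chromosome 4, 132492032 to 132510501, minus strand) and Trp53inp1 (chromosome 4, 11156431 to 11174379, plus strand) share a chromosome. Ddit4l lies on chromosome 3 (137621612 to 137628333, plus strand) and Sesn3 on chromosome 9 (14275067 to 14333101, plus strand). The 250 bases before the RefSeq transcription start (GRCm38.p6) are shown for Sesn2 and Ddit4l, which were higher in irradiated endothelial-like cells, and for Ddit4, which was not. Each reads 5′ to 3′ on the strand of its gene, with the CCAAT motif of either strand in capitals, which reads ATTGG where it lies on the opposite strand.
Sesn2, chr4:132510457-132510706, minus strand: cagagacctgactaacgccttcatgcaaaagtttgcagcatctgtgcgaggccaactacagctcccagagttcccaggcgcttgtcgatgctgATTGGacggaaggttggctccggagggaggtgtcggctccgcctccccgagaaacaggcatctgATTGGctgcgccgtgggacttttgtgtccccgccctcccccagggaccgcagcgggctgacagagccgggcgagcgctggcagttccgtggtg
Ddit4l, chr3:137623422-137623671, plus strand: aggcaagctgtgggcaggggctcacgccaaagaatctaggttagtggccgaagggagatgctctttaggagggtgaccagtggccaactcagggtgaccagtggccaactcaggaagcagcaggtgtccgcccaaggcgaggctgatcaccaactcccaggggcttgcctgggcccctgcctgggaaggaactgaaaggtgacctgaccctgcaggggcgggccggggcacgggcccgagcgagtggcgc
Ddit4, chr10:59951771-59952020, minus strand: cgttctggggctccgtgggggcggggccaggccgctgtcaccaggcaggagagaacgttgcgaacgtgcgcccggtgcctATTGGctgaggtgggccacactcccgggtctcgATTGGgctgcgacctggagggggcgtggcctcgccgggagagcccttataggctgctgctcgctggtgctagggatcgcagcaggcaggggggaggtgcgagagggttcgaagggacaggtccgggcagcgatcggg
Of the 6 genes, 5 were found in the promoter table, and Sesn1 has starts at 2 places, which gave 6 promoters. CCAAT on either strand was present in 5 of the 6 promoters, with Ddit4l as the exception, against 33.8% of the 32851 mouse promoters of the same length. The GC box GGGCGG, on either strand, was present in 6 of 6, against 32.7%. The core ACGTG, which both hypoxia-response and E-box elements can hold, was present in Ddit4 alone (-187 from the start), against 16.6%. A p53 half-site, which can overlap the other motifs, was found in Ddit4l (-90) and at 1 start of Sesn1 (-173), against 7.13% of all promoters. No promoter of the 6 held the forkhead motif TGTTTAC, the amino acid response motif TGATGNAAT or TATAAA on either strand. GC content ran from 59.6% in Sesn3 to 71.2% at 1 start of Sesn1, above the median of 52.4% over all promoters. The Ddit4l window lies inside the gene span given above, and the Sesn2 and Ddit4 windows overlap the ends of theirs. RefSeq and the annotation of the spans thus place starts differently, and only windows at RefSeq starts were searched. These matches describe letters in the windows and were not linked to binding.

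**Figure D1:**
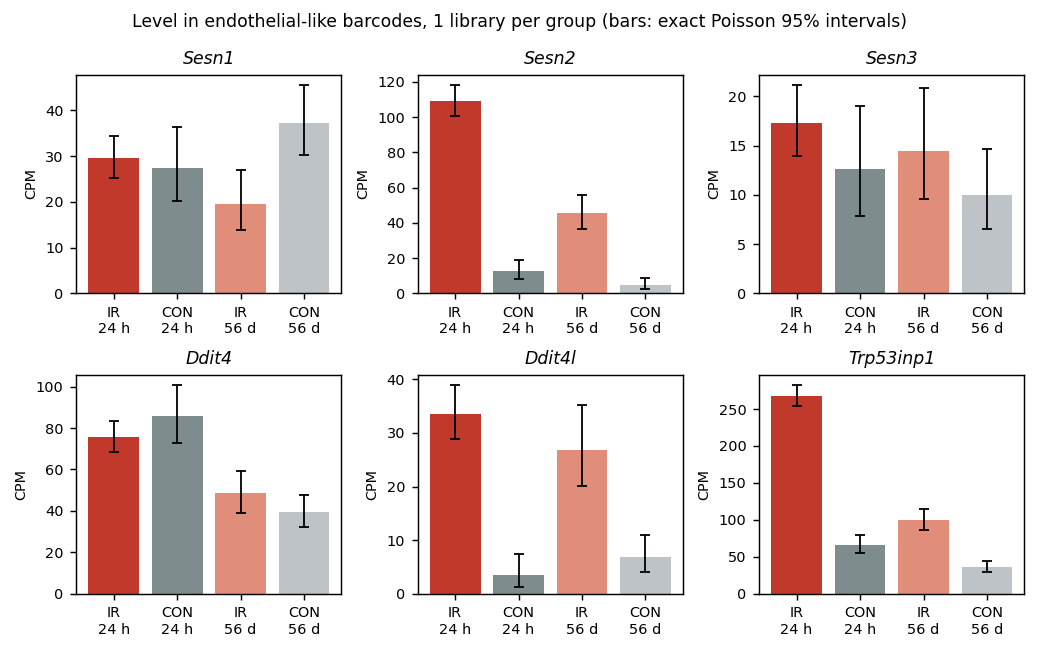
Levels of the 6 genes (CPM, linear axes that start at 0 and differ between panels) in endothelial-like barcodes of the IR and CON libraries at 24 hours and 56 days. Bars are 1 library each with exact Poisson 95% intervals; Sesn2, Ddit4l and Trp53inp1 stand higher in IR at both times, with Sesn2 at 109 and 12.6 CPM in IR and CON at 24 hours.

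Sesn2, a leucine-binding sestrin and is known as a stress-induced member of the family, was higher in irradiated endothelial-like barcodes at both times. In endothelial-like barcodes it had 587 UMIs in IR and 22 in CON at 24 hours, and 88 in IR and 13 in CON at 56 days. Scaled to the class total these were 109 CPM in IR and 12.6 in CON at 24 hours, and 45.4 in IR and 5.01 in CON at 56 days. Both IR libraries were above both CON libraries with intervals that did not overlap. The IR/CON ratio was 8.67-fold (5.67 to 13.9) at 24 hours and 9.07-fold (5.04 to 17.7) at 56 days. Across 12 other ways of filtering, gating, scaling and weighting the barcodes it ranged from 6.51 to 11.2 at 24 hours. At 56 days it ranged from 8.47 to 12.2. Barcodes with no fibre or pericyte marker UMI, described below, lay outside these ranges at 18.7-fold and 12.7-fold. The level in IR was lower at 56 days than at 24 hours with intervals that did not overlap (36.4 to 55.9 CPM and 100.4 to 118 CPM), whereas the intervals of the CON libraries overlapped. Endothelial-like barcodes held 81.1% of the Sesn2 UMIs of IR and 59.5% of those of CON at 24 hours, and 76.5% in IR and 17.6% in CON at 56 days. Single barcodes held few of these UMIs, at most 6 in IR and 3 in CON at 24 hours and at most 5 in IR and 3 in CON at 56 days.

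Outside the endothelial-like class Sesn2 had at most 12 UMIs in any class of either library at 24 hours, apart from 72 in IR and 1 in CON in the barcodes with markers of several classes. In fibro-adipogenic progenitor (FAP)-like barcodes, the stromal cells of muscle, it had 12 UMIs in IR and 0 in CON at 24 hours, at least 2.26-fold higher when CON is set to a floor of 3 UMIs. Pericyte or smooth muscle-like barcodes had 12 UMIs in IR and 2 in CON (1.69-fold, 0.375 to 15.5), satellite-like barcodes, the muscle stem cells, 6 in IR and 1 in CON (5.29-fold, 0.641 to 243), and Schwann-like barcodes 6 in IR and 0 in CON. The last 3 pairs cannot be told apart from equal levels at this depth. B-like barcodes held 0 UMIs in IR and 2 in CON, and myofibre-like barcodes held 0 in all 4 libraries. The highest level of all was in neutrophil-like barcodes of IR at 24 hours, 173 CPM (89.2 to 302) from 12 UMIs in 8 of 33 barcodes, against 3.27 CPM (0.0828 to 18.2) from 1 UMI in 1 of 31 barcodes in CON. That interval overlaps the endothelial-like level in the same library, so their order is not set. Beside it, the neutrophil-like barcodes had medians of 1927 UMIs in IR and 5837 in CON, and their neutrophil marker genes summed to 148279 CPM in IR and 438968 in CON. Endothelial markers summed to 101 CPM there in IR and 9.81 in CON. Among all genes measured in this class 44.9% were at least 1.5-fold higher in IR. The part of these differences in the Sesn2 ratio was not tested. The ratio was 52.8-fold (7.81 to 2257) by class totals and 4.14-fold with each barcode thinned to 1000 UMIs, and 35.7-fold among barcodes with no endothelial marker UMI. At 56 days CON had 45 UMIs of Sesn2 in 232 neutrophil-like barcodes, 27.6 CPM, and these were 60.8% of the Sesn2 UMIs of that library. In the other classes described at 56 days Sesn2 had at most 4 UMIs in either library, with 4 in IR and 0 in CON in pericyte or smooth muscle-like barcodes and 4 in IR and 3 in CON in monocyte or macrophage-like ones.

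Sesn1, a sestrin described as a p53 target in human cells, did not show the pattern of Sesn2. In endothelial-like barcodes it had 159 UMIs in IR and 48 in CON at 24 hours, 29.5 and 27.4 CPM, a ratio of 1.08-fold (0.775 to 1.52). At 56 days it had 38 UMIs in IR and 97 in CON, 19.6 and 37.3 CPM, a ratio of 0.525 (0.351 to 0.771). The 56-day level was thus lower in IR, the reverse of Sesn2 in the same barcodes, with 0.772 after thinning to 1000 UMIs. Its highest levels were in other classes, among them B-like barcodes with 95.9 CPM in IR and 74.6 in CON at 24 hours and 63.5 in IR and 73.6 in CON at 56 days. T or NK-like barcodes had 95.6 CPM in IR and 60.3 in CON at 24 hours, a ratio of 1.59 (0.869 to 2.77). After thinning it was 0.507, with the gene in 1 of 34 barcodes in IR and 7 of 138 in CON, too few to set a direction. Schwann-like barcodes had 64.2 CPM in IR and 68.2 in CON at 24 hours. Schwann-like barcodes of IR led at 56 days, with 101 CPM in IR and 70.7 in CON, and satellite-like barcodes had 38.5 in IR and 86.3 in CON (0.446, 0.114 to 1.26). Intervals of these neighbours overlapped within each library. Of the 7 classes with more than 3 UMIs at 24 hours none had a ratio interval clear of 1, and at 56 days 1 of 7 did, the endothelial-like class.

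Sesn3, the sestrin under FoxO control in human cells, was highest at 24 hours in T or NK-like and pericyte or smooth muscle-like barcodes. T or NK-like barcodes had 127 CPM (81.7 to 189.7) in IR and 103 CPM (82.4 to 128) in CON at 24 hours. Pericyte or smooth muscle-like barcodes had 104 CPM (79.7 to 134) in IR and 128 CPM (79.0 to 195) in CON at 24 hours, and 46.1 CPM in IR and 75.2 in CON at 56 days. B-like barcodes came next at 24 hours with 79.0 CPM in IR and 54.9 in CON. These intervals overlapped between the first 2 classes in both libraries. In endothelial-like barcodes Sesn3 had 93 UMIs in IR and 22 in CON at 24 hours, a ratio of 1.37-fold (0.856 to 2.30), and 28 in IR and 26 in CON at 56 days, a ratio of 1.44-fold (0.816 to 2.56). No class at either time had a Sesn3 ratio interval clear of 1, among 7 classes at 24 hours and 6 at 56 days. The nearest was FAP-like barcodes at 56 days, with 11 UMIs in IR and 54 in CON, 45.1 and 84.6 CPM. Their ratio was 0.534 (0.252 to 1.03). Barcodes with markers of several classes, kept out of the classes, had 87 UMIs in IR and 19 in CON at 24 hours. Their Sesn3 ratio was 1.96-fold (1.18 to 3.40).

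**Figure D2:**
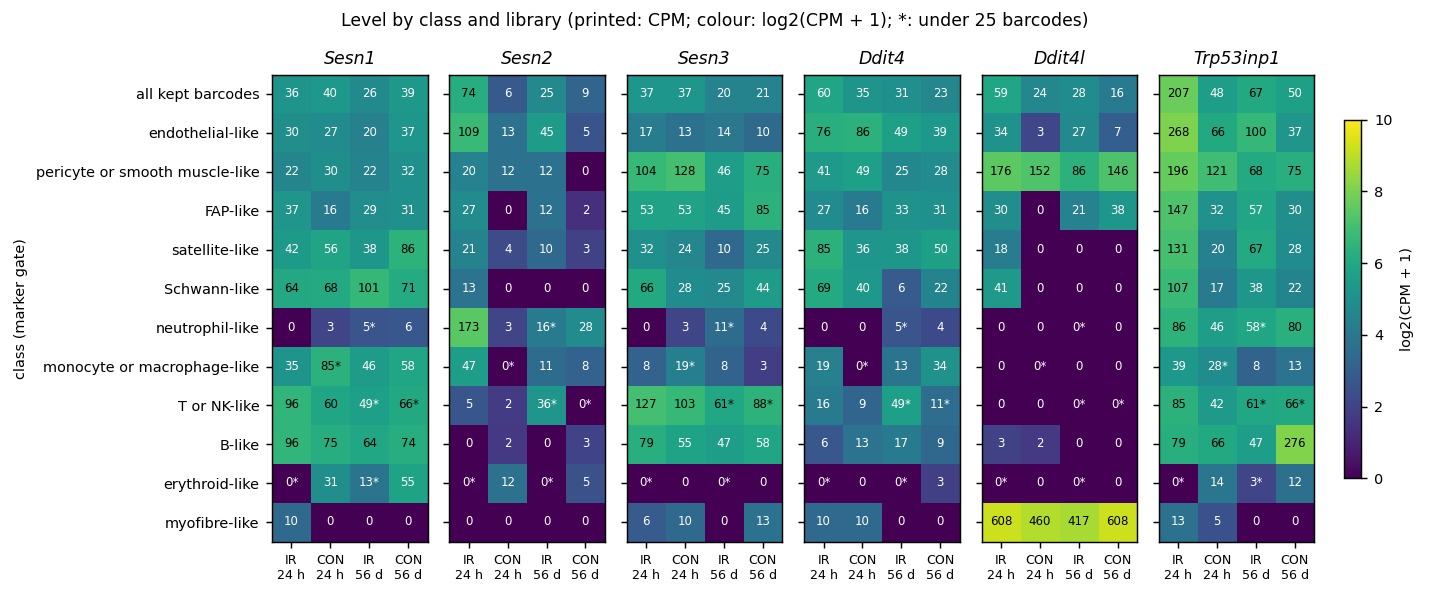
Level of each gene in all kept barcodes and in 11 marker-gated classes (rows) of the 4 libraries (columns, IR left of CON at each time); printed values are CPM and colour is log2(CPM + 1). Stars mark classes under 25 barcodes in that library; Sesn2 and Trp53inp1 are high in the endothelial-like row of IR, and Ddit4l in the myofibre-like row of every library.

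Ddit4l, the muscle paralog of Ddit4, was highest in myofibre-like barcodes in all 4 libraries. There it had 190 UMIs in IR and 96 in CON at 24 hours, 608 and 460 CPM, and 30 UMIs in IR and 48 in CON at 56 days, 417 and 608 CPM. The 24-hour ratio of 1.32-fold (1.03 to 1.70) became 0.982 when every barcode had equal weight, and 1 barcode of CON held 29 of the 96 UMIs. At 56 days the ratio was 0.686 (0.420 to 1.10). Pericyte or smooth muscle-like barcodes came second, with 176 CPM (144 to 213) in IR and 152 CPM (98.3 to 224) in CON at 24 hours, and 86.0 CPM in IR and 146 in CON at 56 days. The last pair gave a ratio of 0.587 (0.346 to 0.986), which was 0.250 among barcodes with no endothelial marker UMI. It was 1.28 after thinning to 1000 UMIs, with the gene in 7 of 57 barcodes in IR and 4 of 52 in CON.

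In endothelial-like barcodes, where Ddit4l was nearly absent in CON, it was higher in IR at both times. It had 181 UMIs in IR and 6 in CON at 24 hours, 33.6 and 3.43 CPM, a ratio of 9.80-fold (4.42 to 27.1). At 56 days it had 52 UMIs in IR and 18 in CON, 26.8 and 6.93 CPM, a ratio of 3.87-fold (2.23 to 7.03). Across the 12 other processings the ratio ranged from 8.62 to 14.3 at 24 hours. At 56 days it ranged from 3.27 to 17.8, the last after thinning to 1000 UMIs. Barcodes with no fibre or pericyte marker UMI, described below, lay outside these ranges at 18.4-fold and 2.20-fold. The same direction was seen at 24 hours in classes where CON held 0 UMIs. Schwann-like barcodes had 19 UMIs in IR and 0 in CON, at least 2.39-fold higher, and FAP-like barcodes 13 in IR and 0 in CON, at least 2.45-fold higher, both against a floor of 3 UMIs in CON. Satellite-like barcodes had 5 in IR and 0 in CON. At 56 days FAP-like barcodes had 5 UMIs in IR and 24 in CON, 20.5 and 37.6 CPM, a ratio of 0.546 (0.163 to 1.46), and Schwann-like and satellite-like barcodes had 0 in both libraries. Neutrophil-like barcodes had 0 UMIs in all 4 libraries, T or NK-like barcodes had 0 at 24 hours, and B-like barcodes had 1 in IR and 2 in CON at 24 hours.

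Because fibre and pericyte RNA carries Ddit4l, markers of those classes were read in the endothelial-like barcodes. All 11 markers of each list were seen except in IR at 56 days, where 10 of each were. The myofibre markers summed to 500.1 CPM in IR and 359 in CON at 24 hours, and to 173 CPM in IR and 278 in CON at 56 days. The pericyte or smooth muscle markers summed to 555 CPM in IR and 428 in CON at 24 hours, and to 218 CPM in IR and 235 in CON at 56 days. At the ratio of Ddit4l to markers found in the source classes, these would bring 1.31 CPM of Ddit4l from fibres and 4.53 from pericytes in IR at 24 hours, against 33.6 CPM observed. In CON at 24 hours the same sums give 0.617 and 3.28 CPM, against 3.43 CPM observed, so that level in CON cannot be told apart from carried RNA. In IR at 56 days they give 0.317 and 1.34 CPM against 26.8 CPM observed, and in CON at 56 days 0.802 and 1.97 CPM against 6.93. Barcodes with no UMI of either marker list numbered 206 in IR and 103 in CON at 24 hours, and 209 in IR and 264 in CON at 56 days. In them Ddit4l had 31 UMIs in IR and 1 in CON at 24 hours, a ratio of 18.4-fold (3.07 to 750.3), and 13 in IR and 6 in CON at 56 days, a ratio of 2.20-fold (0.779 to 7.05), an interval that holds 1. The same barcodes gave ratios of 18.7-fold and 12.7-fold for Sesn2, and 6.17-fold and 2.46-fold for Trp53inp1, at 24 hours and 56 days.

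Ddit4, which hypoxia, glucocorticoids and DNA damage are known to induce, was not higher in irradiated endothelial-like barcodes at 24 hours. It had 407 UMIs in IR and 150 in CON, 75.6 and 85.8 CPM, a ratio of 0.881 (0.729 to 1.07). At 56 days it had 94 UMIs in IR and 102 in CON, 48.5 and 39.3 CPM, a ratio of 1.24-fold (0.923 to 1.65). Satellite-like barcodes at 24 hours were the only class with an interval above 1, among 7 at each time. They had 24 UMIs in IR and 9 in CON, 84.8 and 36.1 CPM, a ratio of 2.35-fold (1.05 to 5.74), or 1.47-fold among those with no endothelial marker UMI. Schwann-like barcodes had 68.5 CPM in IR and 39.8 in CON, a ratio of 1.72-fold (0.747 to 4.62). In IR at 24 hours the satellite-like, endothelial-like and Schwann-like levels overlapped in their intervals. Barcodes with markers of several classes, kept out of the classes, had 67 UMIs in IR and 13 in CON at 24 hours. Their Ddit4 ratio was 2.20-fold (1.20 to 4.35). At 56 days satellite-like barcodes had 38.5 CPM in IR and 50.1 in CON, a ratio of 0.768 (0.189 to 2.33), and monocyte or macrophage-like barcodes 13.4 CPM in IR and 34.0 in CON, a ratio of 0.395 (0.110 to 1.18).

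Over all kept barcodes Ddit4 nevertheless read 59.8 CPM in IR and 35.3 in CON at 24 hours, 1.69-fold (1.44 to 1.99), from 583 and 213 UMIs. Endothelial-like barcodes, the class with 69.8% of the Ddit4 UMIs of IR and 70.4% of those of CON, made up 56.9% of kept barcodes in IR and 34.4% in CON. With the class levels of both libraries weighted by the class makeup of CON, the ratio was 1.09. The pooled value of Ddit4 thus stood apart from its values within the class that held most of it. Whether the class shares differed in the limbs or in dissociation, sorting and capture cannot be told apart.

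Trp53inp1 had the most UMIs of the 6 genes and had an IR/CON interval clear of 1 in more classes at 24 hours than any other of them. Endothelial-like barcodes had 1443 UMIs in IR and 116 in CON at 24 hours, 268 and 66.3 CPM, a ratio of 4.04-fold (3.34 to 4.93). At 56 days they had 194 UMIs in IR and 95 in CON, 100.1 and 36.6 CPM, a ratio of 2.74-fold (2.13 to 3.54). Across the same 12 other processings the ratio ranged from 3.84 to 4.76 at 24 hours and from 2.47 to 3.14 at 56 days. Barcodes with no fibre or pericyte marker UMI lay outside these ranges at 6.17-fold and 2.46-fold.

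At 24 hours 5 of 9 classes had a Trp53inp1 interval above 1 and none below. Satellite-like barcodes had 37 UMIs in IR and 5 in CON, 131 and 20.04 CPM, a ratio of 6.52-fold (2.56 to 21.3). Schwann-like barcodes had 50 UMIs in IR and 3 in CON, 107 and 17.1 CPM, a ratio of 6.28-fold (2.03 to 31.5). FAP-like barcodes had 64 UMIs in IR and 8 in CON, 147 and 32.4 CPM, a ratio of 4.53-fold (2.16 to 10.9), which was 1.80 after thinning to 1000 UMIs. These 3 classes had no more than 251 CPM of endothelial markers in any library at 24 hours. The endothelial-like class had 14096 CPM in IR and 15254 in CON. The gate itself keeps endothelial markers low in the 3 classes, so this is not a separate check. Among barcodes with no endothelial marker UMI the ratio was 6.63 in satellite-like and 5.29 in Schwann-like barcodes. At least 1.5-fold higher in IR were 25.6% of all genes measured in satellite-like, 25.9% in Schwann-like and 22.6% in FAP-like barcodes. Pericyte or smooth muscle-like barcodes had 196 CPM in IR and 121 in CON, 1.62-fold (0.999 to 2.74), which was 0.938 among those with no endothelial marker UMI and 3.73 after thinning to 1000 UMIs. B-like barcodes had 79.0 CPM in IR and 65.9 in CON, 1.20-fold (0.737 to 1.91). The fifth class was T or NK-like, with 85.0 CPM in IR and 41.8 in CON, 2.03-fold (1.05 to 3.78). After thinning its ratio was 0.812, with the gene in 1 of 34 barcodes in IR and 5 of 138 in CON, too few to set a direction.

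At 56 days the endothelial-like class was the only one with a Trp53inp1 interval above 1. FAP-like barcodes had 57.4 CPM in IR and 29.8 in CON, 1.93-fold (0.895 to 4.06), and satellite-like barcodes 67.3 CPM in IR and 27.9 in CON, 2.42-fold (0.781 to 7.04). The satellite-like ratio was 0.473 after thinning to 1000 UMIs, with the gene in 1 of 25 barcodes in IR and 5 of 71 in CON. Pericyte or smooth muscle-like barcodes had 67.6 CPM in IR and 75.2 in CON, 0.898 (0.464 to 1.75). After thinning their ratio was 4.56, with the gene in 5 of 57 barcodes in IR and 1 of 52 in CON. Both thinned values rest on too few barcodes to set a direction. B-like barcodes were the exception in the other direction, with 11 UMIs in IR and 90 in CON, 46.6 and 276 CPM, a ratio of 0.169 (0.0814 to 0.317). In CON 56 of those 90 UMIs lay in 1 barcode, and leaving out the top barcode of each library gave 0.341.

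**Figure D3:**
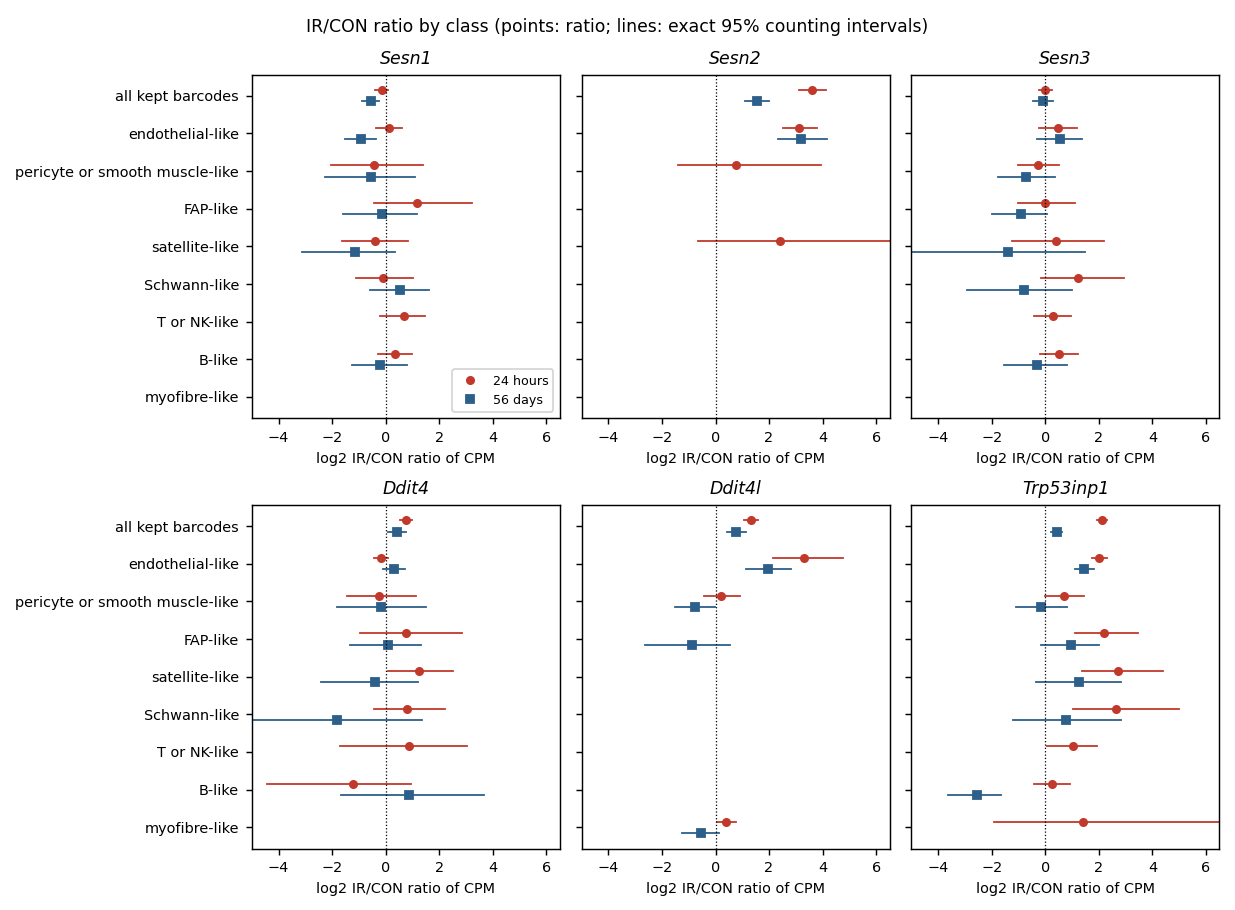
IR/CON ratio of each gene (log2 axis) by class at 24 hours (circles) and 56 days (squares), with exact 95% counting intervals; values of 0 mean equal CPM. Points with 0 UMIs in either library or at most 3 in both are not drawn, neutrophil-like and monocyte or macrophage-like rows are left out, and lines that reach the frame go beyond it; Trp53inp1 at 24 hours lies to the right in most classes, while Sesn3 straddles 0 throughout.

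Over all kept barcodes the order of the ratios at 24 hours was Sesn2, Trp53inp1, Ddit4l, Ddit4, Sesn3 and Sesn1. Sesn2 had 74.2 CPM in IR and 6.14 in CON, 12.1-fold (8.69 to 17.3), and Trp53inp1 207 CPM in IR and 48.1 in CON, 4.31-fold (3.81 to 4.89). Ddit4l had 59.5 CPM in IR and 23.9 in CON, 2.49-fold (2.07 to 3.01), or 1.42-fold, under the threshold of 1.5, with equal weight per barcode. Sesn3 had 37.3 CPM in both libraries, and Sesn1 had 35.6 CPM in IR and 39.7 in CON, 0.897 (0.759 to 1.06). By the totals of all barcodes 4 of the 6 genes were at least 1.5-fold higher in IR, where 34.6% of all 13951 genes measured were, and 0 were 1.5-fold lower, where 10.8% were. Scaling by the median of gene ratios shifted all ratios of this comparison by 0.35 on the log2 scale, which changed the genes at least 1.5-fold higher and lower to 2253 and 2540, against 4827 and 1505. Under that scaling Ddit4 was 1.32-fold and Sesn1 0.702. RNA of mitochondrial, ribosomal protein and haemoglobin genes made up 15.5% of UMIs in IR and 27.6% in CON, and its part in the shift was not tested.

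At 56 days the all-barcode ratios were smaller. Sesn2 had 25.3 CPM in IR and 8.64 in CON, 2.93-fold, or 1.81-fold after thinning, under its endothelial-like ratio, and in CON neutrophil-like barcodes held more of its UMIs (60.8%) than endothelial-like ones (17.6%). Ddit4l had 28.0 CPM in IR and 16.3 in CON, 1.71-fold (1.33 to 2.19), or 1.13-fold at the class makeup of CON. Trp53inp1 had 66.9 CPM in IR and 50.0 in CON, 1.34-fold (1.15 to 1.55), with 131 of the 428 UMIs of CON in neutrophil-like barcodes. Ddit4 had 31.5 CPM in IR and 23.5 in CON, 1.34-fold (1.07 to 1.67). Sesn3 had 20.5 CPM in IR and 21.5 in CON, and Sesn1 26.4 CPM in IR and 38.8 in CON, 0.681 (0.548 to 0.842). Of the 6 genes 2 were at least 1.5-fold higher and 0 lower, against 17.2% and 12.9% of all 13687 genes measured. In endothelial-like barcodes alone 3 of 6 were at least 1.5-fold higher at 24 hours and 0 lower, against 16% and 6.35% of 10912 genes, and 3 were higher and 1 lower at 56 days, against 12.8% and 12.6% of 10158 genes.

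At counts this low the share of barcodes with a UMI largely follows the level. The level differences were also seen as differences in how many endothelial-like barcodes held a UMI. Sesn2 was found in 29.1% of them in IR and 3.92% in CON at 24 hours, and in 14.0% in IR and 1.41% in CON at 56 days. At a fixed 1000 UMIs per barcode it was found in 125 of 1266 barcodes in IR (9.87%, 8.29 to 11.7) and 2 of 412 in CON (0.485%, 0.0588 to 1.74) at 24 hours. At 56 days it was found in 15 of 420 in IR (3.57%, 2.01 to 5.82) and 2 of 681 in CON (0.294%, 0.0356 to 1.06). This thinning left out 179 shallower barcodes of IR and 47 of CON at 24 hours, and 53 of IR and 97 of CON at 56 days. B-like barcodes were of similar depth at 24 hours, with medians of 3261 UMIs in IR and 3141.5 in CON. The endothelial-like medians were 3151 in IR and 3505 in CON. B-like barcodes gave Sesn2 in 0 of 100 in IR, an interval up to 3.62%, and 0 of 233 in CON, up to 1.57%. At 56 days they gave it in 0 of 60 in IR, up to 5.96%, and 0 of 73 in CON, up to 4.93%. The endothelial-like share in IR at 24 hours lies above its B-like limit. In both CON libraries and in IR at 56 days the B-like limit is above the endothelial-like share. There B-like barcodes were too few to set shares this low apart, so that comparison decides nothing. The endothelial-like Sesn2 intervals of IR and CON, given above, did not overlap at either time.

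Trp53inp1 was found in 25.5% (23.1 to 28.0) of thinned endothelial-like barcodes in IR and 5.83% (3.77 to 8.54) in CON at 24 hours, and in 7.38% (5.07 to 10.3) in IR and 3.08% (1.92 to 4.68) in CON at 56 days. The shares without thinning were 52.2% in IR and 17.6% in CON, and 24.7% in IR and 10.2% in CON. Without thinning 172 of 1445 barcodes in IR and 6 of 459 in CON held at least 3 UMIs of Trp53inp1 at 24 hours. Ddit4l was found in 2.53% (1.74 to 3.55) of thinned barcodes in IR and 0.243% in CON at 24 hours, and in 2.38% in IR and 0.147% in CON at 56 days, with 1 barcode in each CON library. B-like barcodes gave Ddit4l in 1 of 100 in IR and 1 of 233 in CON at 24 hours, and in 0 of 60 in IR and 0 of 73 in CON at 56 days. The B-like interval in IR at 24 hours (0.0253% to 5.45%) holds the endothelial-like share. At 56 days the B-like limits are above both endothelial-like shares. B-like barcodes were too few to set shares this low apart, so the comparison with them decides nothing for Ddit4l. Between IR and CON the endothelial-like intervals did not overlap. They were 1.74% to 3.55% in IR and 0.00614% to 1.34% in CON at 24 hours. At 56 days they were 1.15% to 4.33% in IR and 0.00372% to 0.815% in CON. Ddit4 was found in 6.48% (5.18 to 7.98) in IR and 8.98% (6.40 to 12.2) in CON at 24 hours. At least 1 of the 6 genes was seen in 40.0% of thinned barcodes in IR and 18.7% in CON at 24 hours, and in 20.2% in IR and 11.01% in CON at 56 days. The share with at least 1 was higher in IR at both times.

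Whether the genes lay in the same barcodes was read at the same fixed depth. Among thinned endothelial-like barcodes of IR at 24 hours, Sesn2 was found in 43 of 323 with Trp53inp1 (13.3%, 9.80 to 17.5) and in 82 of 943 without it (8.70%, 6.98 to 10.7). It was found in 10.0% of barcodes with Cdkn1a and 9.28% of those without, and Cdkn1a itself was seen in 1029 of the 1266. Ddit4l was found in 2 of 125 barcodes with Sesn2 (an interval of 0.194% to 5.66%) and 30 of 1141 without (1.78% to 3.73%). Sesn1 was found in 5.26% (3.10 to 8.29) of barcodes with Trp53inp1 and 2.23% (1.38 to 3.38) of those without. These intervals overlapped. Read the other way, Trp53inp1 was found in 17 of 38 barcodes with Sesn1 (44.7%, 28.6 to 61.7). Without Sesn1 it was found in 306 of 1228 (24.9%, 22.5 to 27.4), an interval that did not overlap the first. This reading uses the same counts, adds nothing to the first reading and is one of many pairs read. In the other libraries Trp53inp1 was found in few barcodes with Sesn1: 0 of 10 in CON at 24 hours, 0 of 9 in IR and 1 of 21 in CON at 56 days. No pair was tested.

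Genes of the surrounding pathways were counted from lists in the same endothelial-like barcodes, with genes of at least 20 UMIs over both libraries as measured. Of all genes measured 16% were at least 1.5-fold higher in IR and 6.35% lower at 24 hours, with a median log2 ratio of 0.06, and 12.8% were higher and 12.6% lower at 56 days, with a median of 0.02. A list whose shares lie near these does not stand out. The lists were chosen with earlier results of these data known, so a list that stands out is no independent support. Among canonical p53 targets 23 of 28 measured were at least 1.5-fold higher in IR and 1 lower at 24 hours, with a median log2 ratio of 1.46, and 18 of 25 were higher and 1 lower at 56 days, with a median of 1.13. Gdf15, a stress cytokine, had 461 CPM in IR and 9.72 in CON at 24 hours, 47.4-fold, and Ckap2, a spindle-associated gene, had 67.4 CPM in IR and 1.14 in CON, from 363 and 2 UMIs. Tnfaip8, an apoptosis regulator, was the one lower, with 22.5 CPM in IR and 40.6 in CON. Among other metabolic p53 targets 8 of 17 measured were higher and 0 lower at 24 hours, with a median of 0.48, and 9 of 16 were higher and 2 lower at 56 days, with a median of 0.64. Cpt1c, a brain-type carnitine palmitoyltransferase, had 33.3 CPM in IR and 6.86 in CON at 24 hours (4.85-fold, 2.71 to 9.55), and 19.6 CPM in IR and 3.08 in CON at 56 days (6.37-fold, 2.93 to 15.8). Aldh4a1, a proline breakdown enzyme, had 35.1 CPM in IR and 11.4 in CON at 24 hours (3.07-fold, 1.93 to 5.14).

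Lists for other inducers of these genes had medians between -0.20 and 0.25 on the log2 scale. Over all genes measured 16% were higher and 6.35% lower at 24 hours, and 12.8% and 12.6% at 56 days. Larger shares than these were glucocorticoid genes lower at 24 hours and higher at 56 days, and hypoxia and FoxO genes lower at 56 days. The medians do not show this, the lists are small, and no list was tested. For the ATF4 and amino acid response, a known route to Sesn2 and Ddit4, 2 of 18 measured were higher and 2 lower at 24 hours, median -0.16, and 4 were higher and 0 lower at 56 days, median 0.25. Its members Atf3 (92.1 CPM in IR and 50.3 in CON, 1.83-fold) and Ddit3 (34.0 in IR and 19.4 in CON, 1.75-fold) were higher at 24 hours, and Psph, a serine synthesis enzyme, was lower at 0.547. For the glucocorticoid response, a known route to Ddit4, 1 of 12 was higher and 4 lower at 24 hours, median -0.06. Tsc22d3, a standard glucocorticoid target, was lower, with 86.6 CPM in IR and 143 in CON. Pdk4 was higher, with 42 UMIs in IR and 2 in CON, 6.82-fold (1.77 to 58.2). At 56 days 4 of 13 were higher and 0 lower, median 0.18. For hypoxia 3 of 18 were higher and 1 lower at 24 hours, median -0.18, and 1 was higher and 7 lower at 56 days, median 0.07. At 24 hours Bhlhe40 was 2.29-fold (1.77 to 3.02) and Eno1 0.513 (0.430 to 0.613). For FoxO targets, which include the route to Sesn3, 2 of 14 were higher and 1 lower at 24 hours, median 0.02, and 1 was higher and 5 lower at 56 days, median -0.20. Insr was 1.99-fold (1.46 to 2.76) and Gadd45a 0.617 (0.448 to 0.858) at 24 hours.

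Genes that act below or beside the sestrins, Ddit4 and Trp53inp1 had list medians between -0.24 and 0.27. The share of AMPK genes lower at 56 days was above the 12.6% of all genes measured, in a list of 10. Of 30 mTORC1 and GATOR genes 2 were higher and 2 lower at 24 hours, median 0.15, and 5 higher and 2 lower at 56 days, median 0.13. Tsc2, through which Ddit4 acts, had 31.0 CPM in IR and 18.9 in CON at 24 hours (1.64-fold, 1.13 to 2.47) and 39.7 in IR and 23.9 in CON at 56 days (1.66-fold, 1.18 to 2.36). Rps6kb1, the S6 kinase gene, had 79.1 CPM in IR and 53.8 in CON at 24 hours, 1.47-fold (1.17 to 1.86). Of 10 AMPK genes 1 was higher and 0 lower at 24 hours, median 0.06, led by the catalytic subunit gene Prkaa1 at 1.63-fold (1.15 to 2.37), and 2 were higher and 3 lower at 56 days, median -0.24. Of 16 NRF2 and antioxidant genes 2 were higher at 24 hours, median -0.14, led by the glutathione synthesis gene Gclc at 1.89-fold (1.31 to 2.81), and 1 at 56 days, median 0.27. Lower at 24 hours, though by less than 1.5-fold, were Lamtor2 of the mTORC1 list (0.843) and Prkag1 of the AMPK list (0.762). So were Txn1 (0.865) and Prdx1 (0.869) of the antioxidant list. Of 14 autophagy partners of Trp53inp1 none was higher or lower at 24 hours, median -0.22, with Map1lc3b, an LC3 gene, at 338 CPM in IR and 441 in CON, 0.768 (0.705 to 0.836), and 1 was higher at 56 days, median 0.12. Immediate early genes, which tissue dissociation can raise, had 3 of 18 higher at 24 hours, median 0.05, and 2 lower at 56 days, median -0.05. Some genes stand on more than 1 list, among them Tsc2, Ulk1, Sqstm1, Atf3 and Btg2.

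**Figure D4:**
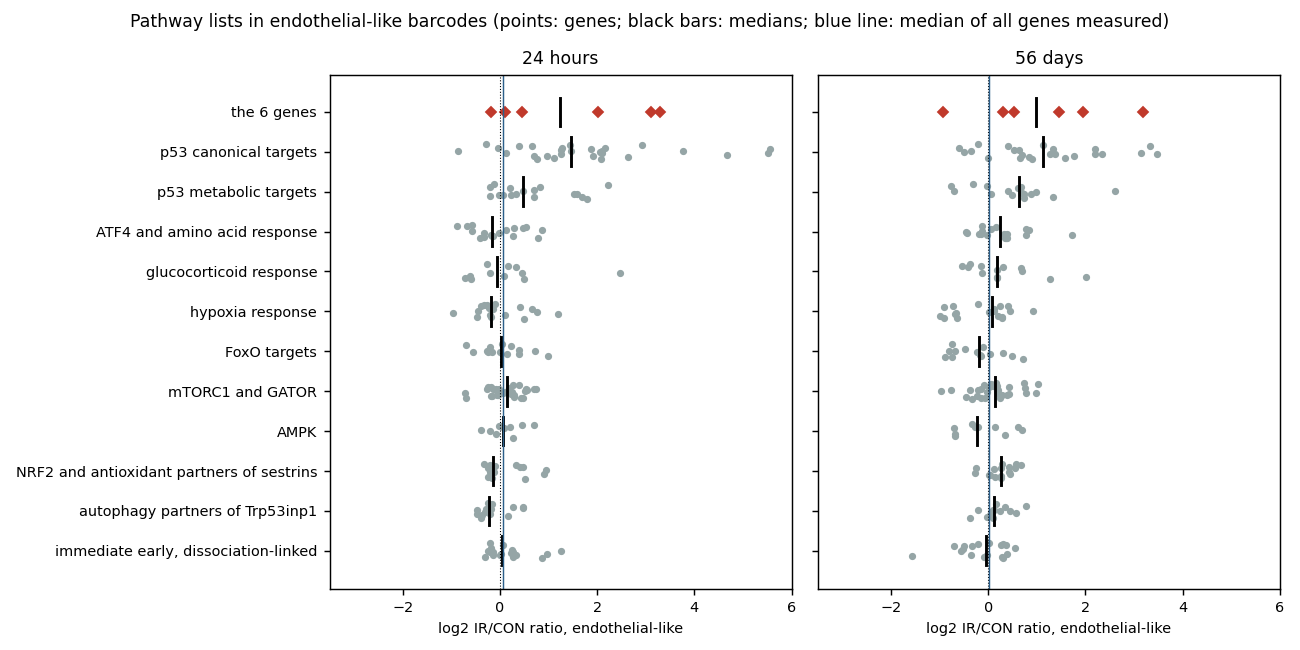
Log2 IR/CON ratios of measured genes in endothelial-like barcodes at 24 hours (left) and 56 days (right), with the 6 genes as red diamonds in the top row, 11 pathway lists below, list medians as black bars and the median of all genes measured as a blue line. The canonical p53 row lies furthest to the right, with medians of 1.46 and 1.13, and most other rows centre near 0. The lists were chosen with earlier results of these data known.

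Genes with a like pattern were sought over 28 sums, 7 classes in each of 4 libraries, by Pearson correlation of log2(CPM + 10). The sums share libraries and classes, so the values describe and carry no test. Sesn2 was nearest to the p53 targets Gdf15 (0.867), Eda2r (0.866) and Bax (0.854). Trp53inp1 was nearest to Ldb1 (0.813), Eif4enif1 (0.812) and Ptbp1 (0.808). Ddit4 was nearest to Spred2 (0.861), Alg10b (0.857) and Tmem109 (0.849).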

How the data were processed

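Single-cell 3′ RNA libraries (10x Genomics, version 3 chemistry) of sorted mouse hindlimb cells were used, 1 library per group of 3 pooled limbs. The authors made the UMI counts with Cell Ranger 5.0.0 on mm10, per the submitters' processing notes, and deposited whole-number counts per gene and barcode. The annotation release is not given in the sources used here. Deposited barcodes had at least 500 UMIs, so the filter removed 331 for too few genes and 361 for their mitochondrial share, some for both. Deposited totals were 10121978 and 6339993 UMIs in IR and CON at 24 hours, and 4715202 and 8842963 at 56 days, from 2763, 1471, 1030 and 1822 barcodes in the same order, fewer than the at least 10000 cells sorted per group.

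Classes used 13 marker lists: a barcode took the class with the greatest share of markers seen, with at least 3 markers and 2 times the share of any other list. This rule was set after the files were opened. No doublet caller was run; barcodes with markers of several classes stayed out of the classes, and free RNA was not removed. Counts were summed per class and library and divided by the class total (CPM). Levels carry exact Poisson, shares exact Clopper-Pearson and ratios exact conditional binomial intervals (scipy 1.17.1), at 95% and for counting error only, since 1 library per group gives no replicate spread. UMIs of 0 were set to a floor of 3 counts per class sum for least folds. Log2 ratios of list genes used a prior count of 0.5. The ratio code was tested on simulated data. The 6 genes, the 11 pathway lists and the marker lists were chosen with earlier results of these data known. Named list genes come from a ranking at 24 hours in endothelial-like barcodes. It took the 2 per list and direction whose interval bound nearest to 1 was furthest from 1, and not all of these are named. Cdkn1a is a label check, and Cpt1c and Tsc2 at 56 days repeat genes so named. Genes of like pattern had at least 500 UMIs. Promoters are from RefSeq (GRCm38.p6) and positions from GENCODE M21 (GRCm38, which is mm10). Alternatives changed scaling, barcode weight and depth, barcode filters, gate, Leiden clustering (scanpy 1.11.5), shared and top barcodes, thresholds and, chosen after seeing the data, markers of other classes and class makeup.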

Additional observations from a re-analysis of the deposited data

How the results depend on the processing

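No paired analysis was possible, although IR and CON limbs are opposite limbs. Limbs of 3 mice were pooled into 1 library per group, so no limb can be matched with the opposite limb of its mouse. No replicate could be left out because each group is 1 library. Of the alternatives, the stricter gate, Leiden classes, the other barcode filters and leaving out shared barcodes moved no ratio beyond its interval. Leaving out barcodes with endothelial marker UMIs gave no value where a library then had 0 UMIs of the gene. Scaling by the median of gene ratios moved the all-barcode ratios at 24 hours to 0.702 (Sesn1), 0.782 (Sesn3), 1.32 (Ddit4), 1.95 (Ddit4l) and 3.37 (Trp53inp1), and a total without mitochondrial, ribosomal protein and haemoglobin genes moved Trp53inp1 there to 3.69. Ddit4l at 24 hours over all barcodes was 1.42 with equal weight per barcode and 3.04 without its top barcode in each library. Thinning to 1000 UMIs gave 1.24 (Ddit4, all barcodes, 24 hours), 0.708 (Ddit4, endothelial-like, 24 hours), and at 56 days over all barcodes 0.993 (Sesn1), 1.81 (Sesn2), 0.602 (Sesn3) and 1.15 (Trp53inp1), with 0.772 (Sesn1) and 17.8 (Ddit4l) in endothelial-like barcodes. At the class makeup of CON, an alternative chosen after seeing the data, the all-barcode ratios at 24 hours were 1.17 (Sesn1), 8.18 (Sesn2), 1.31 (Sesn3), 1.09 (Ddit4), 1.84 (Ddit4l) and 3.01 (Trp53inp1), and at 56 days 1.07 (Ddit4) and 1.13 (Ddit4l). In endothelial-like barcodes free of fibre and pericyte marker UMIs, also chosen after seeing the data, ratios were 18.7 (Sesn2), 2.97 (Sesn3) and 6.17 (Trp53inp1) at 24 hours, and 0.350 (Sesn1) and 2.20 (Ddit4l) at 56 days. The metabolic p53 targets counted as higher were 5 at 24 hours and 3 at 56 days at a 2-fold threshold, and 5 at 56 days with at least 50 UMIs. Ratios with an interval clear of 1 that changed direction were Trp53inp1 in T or NK-like barcodes at 24 hours (0.812, thinned), Ddit4l in myofibre-like barcodes at 24 hours (0.982, equal weight) and Ddit4l in pericyte or smooth muscle-like barcodes at 56 days (1.28, thinned). Of ratios whose interval held 1, those that moved past it to the other side of 1 were Sesn1 and Sesn3 over all barcodes at the class makeup of CON (above). After thinning these were Sesn1 at 24 hours in satellite-like (2.70) and T or NK-like barcodes (0.507), and at 56 days Sesn1 in monocyte or macrophage-like (1.96) and Trp53inp1 in pericyte or smooth muscle-like (4.56) and satellite-like barcodes (0.473). Among pericyte or smooth muscle-like barcodes with no endothelial marker UMI they were Sesn3 (1.73) and Trp53inp1 (0.938) at 24 hours. The cause was not tested for any of these. Thinning was a single random draw, and in the smaller classes few thinned barcodes held the gene, as few as 1 in a library. Thinned values there do not set a direction. Depth limits the smaller classes most, where many members had 3 UMIs or fewer, and intervals do not hold differences between mice.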
